A study of Mus musculus with 2 samples.

Results

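Immature granule-forming neutrophils were examined among cells sorted as microglia (CD45low CD11b+) from the prefrontal cortex of C57BL/6 mice. The members were 363 of 28383 cell barcodes, after barcodes with fewer than 500 UMIs, fewer than 300 genes or over 20% mitochondrial UMIs had been left out. UMIs are sequence tags that let copies of the same captured transcript be counted once. A barcode was chosen by its granule transcripts, when the 4 granule genes Camp, Ngp, Ltf and Lcn2 together made up at least 1% of its UMIs and at least 3 of the 4 had a UMI, so the levels of these 4 genes are a description. Mice were gavaged with vehicle or with corticosterone, which is the stress hormone that cortisol is in humans, and the series describes the treatment as modelling depression with hypercortisolemia. There was 1 library per group, and neither the number of animals pooled in a library nor the dose and duration were given in the sources used here. No test between the groups was therefore possible, no p-value was computed, intervals are at the 95% level and cover counting error only, and treatment and library cannot be told apart. The sample records call the groups vehicle and corticosterone while the deposited files carry other words, and every direction rests on the sample records.

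Neutrophils are made in the bone marrow, where they pass from dividing precursors to non-dividing cells. Granules form in waves along the way: primary granules with myeloperoxidase and elastase, secondary granules with lactoferrin and cathelicidin, then tertiary granules with gelatinase. Transcription of the secondary granule genes is strong at the myelocyte and metamyelocyte stages, depends on the factor C/EBP epsilon, and is shut down before mature neutrophils with the chemokine receptor CXCR2 enter the blood. Neutrophils carry CD11b as microglia do, usually with more CD45 on the surface.

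The vehicle library gave 232 members of 10500 barcodes (2.21%, interval 1.94 to 2.51%). The corticosterone library gave 131 of 17883 (0.733%, 0.613 to 0.869%). The members held 998733 UMIs in vehicle and 1101997 in corticosterone, with a median of 2889 and 7332 UMIs per barcode. Other neutrophils, which are barcodes outside the rule with at least 1% of UMIs in S100a8, S100a9, Csf3r, Cxcr2 and Retnlg and at least 3 of these 5 detected, numbered 223 and 249. Microglial barcodes, with at least 0.5% of UMIs in 5 microglial genes, among them P2ry12, Tmem119, Siglech and Cx3cr1, and at least 3 of the 5 detected, numbered 9826 and 16844. The libraries shared 104 deposited barcode sequences, among them 3 vehicle members and 1 corticosterone member, and no barcode sequence was a member in both.

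The granule genes took a median of 6.95% of a member's UMIs in vehicle (range 1.03 to 20.4%) and 12.7% in corticosterone (1.25 to 22.3%). Camp (chr9:109847379-109849617, minus strand, GRCm38), which encodes the antimicrobial peptide cathelicidin, stood at 32657 CPM (UMIs of the gene per 1e6 UMIs, summed over the members of a library) in vehicle members and 41239 in corticosterone members. Ngp (chr9:110419747-110423012, plus strand), the neutrophilic granule protein, stood at 36173 and 48554 CPM. Ltf (chr9:111019271-111042767, plus strand), the iron-binding lactoferrin, stood at 9033 and 15182 CPM. Lcn2 (chr2:32384633-32388252, minus strand), the siderophore-binding lipocalin, stood at 15407 and 21963 CPM. In microglial barcodes the same 4 genes were between 13.5 and 47.4 CPM in vehicle and between 6.89 and 18.1 CPM in corticosterone. Camp had a UMI in 13.3% of vehicle and 5.77% of corticosterone microglial barcodes before depth was equalised, and where these UMIs came from was not tested.

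The label was checked with markers outside the rule. Cd177 (chr7:24743983-24760311, minus strand), a surface protein stored in secondary granules, was at 1148 CPM (interval 1083 to 1217) in vehicle members and 1814 CPM (1735 to 1895) in corticosterone members, and at 1.58 and 1.29 CPM in microglial barcodes. With every barcode thinned to 1000 UMIs, Cd177 had a UMI in 67.9% of 162 vehicle members and 80.5% of 128 corticosterone members, against 0.190% and 0.0969% of microglial barcodes. Thinning left out 70 vehicle and 3 corticosterone members that were shallower, and without thinning the members' shares were 73.7 and 97.7%. S100a8, a subunit of the calcium-binding complex calprotectin, was detected in 232 of 232 and 131 of 131 members, and in 36.4% of vehicle and 18.4% of corticosterone microglial barcodes. The 5 neuron and the 5 basophil or mast cell markers were at 0 in the members of both libraries. Of the 6 B cell markers Cd79a, Ms4a1 and Pax5 were at 0, and the list summed to 182 and 95.3 CPM, mostly Ighm at 171 and 90.7 CPM. Of 7 T or NK cell markers 1 had UMIs, and the list summed to 14.0 and 17.2 CPM with Cd3e and Trac at 0. Gfap and Aqp4 of the astrocyte list and Epx, Prg2 and Prg3 of the eosinophil list were at 0, and these lists summed to 2.00 and 1.81 CPM and to 14.0 and 6.35 CPM. The 6 neutrophil progenitor genes Mpo, Elane, Prtn3, Ctsg, Ms4a3 and Prss57 summed to 93.1 CPM in vehicle and 88.9 CPM in corticosterone.

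Microglial transcripts were the most abundant among the marker lists of cell types outside the neutrophil lineage. Of the neutrophil lists, the 5 mature neutrophil markers summed to 5228 CPM in vehicle and 8803 CPM in corticosterone members. Most of this was Retnlg, at 4584 and 8173 CPM. The 10 microglial genes summed to 13111 CPM in vehicle and 4776 CPM in corticosterone members. Monocyte markers summed to 1383 and 2890 CPM, mostly Ly6c2 at 1232 and 2410 CPM. Border-associated macrophage markers summed to 336 and 152 CPM and erythroid markers to 320 and 164 CPM. The 6 markers that define microglia stood in vehicle members at a median of 0.357 times their level in vehicle microglial barcodes, and in corticosterone members at 0.142 times. The members were therefore divided by their summed share of the 5 microglial rule genes, relative to the median microglial barcode of their library. Below 0.1 times that median lay 66 vehicle members (28.4%) and 104 corticosterone members (79.4%). Between 0.1 and 0.5 times lay 79 (34.1%) and 18 (13.7%). At 0.5 times or more lay 87 (37.5%) and 9 (6.87%), and these 87 vehicle members had a median of 938 UMIs against 4817.5 in the lowest band. In these 96 barcodes granule and microglial transcripts occurred together, so the name neutrophil describes only some of their RNA, and how the transcripts came to share a barcode was not tested. The low median does not make the weight of the 87 vehicle barcodes small. Vehicle members held 998733 UMIs in all but 574296 below 0.5 times, and the deepest had 49179 and 12010 UMIs. Values summed over all vehicle members therefore include much RNA from barcodes at 0.5 times or more.

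**Figure D1:**
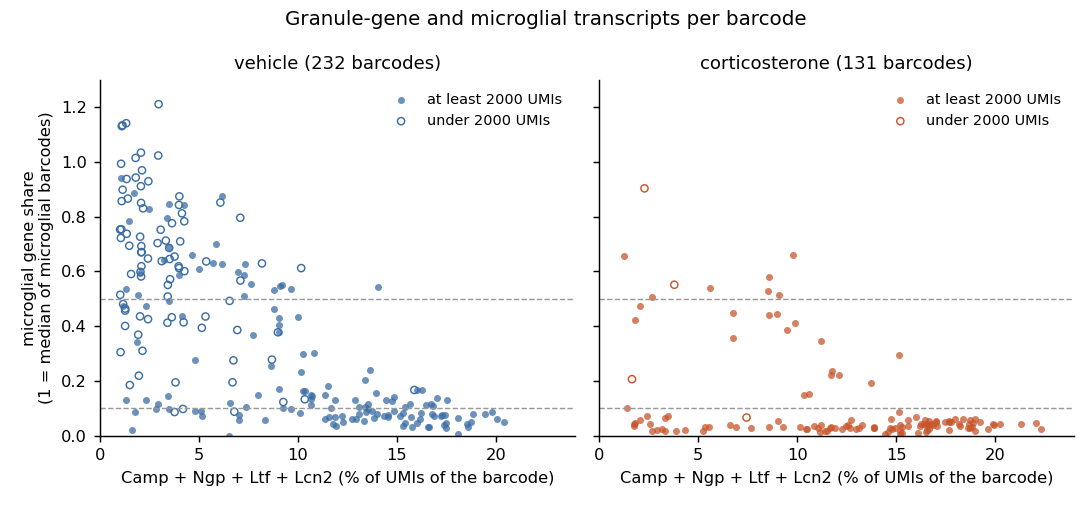
Each point is a member barcode, with the share of its UMIs in Camp, Ngp, Ltf and Lcn2 on the x axis and, on the y axis, its share of UMIs in 5 microglial genes relative to the median microglial barcode of the same library. Dashed lines mark 0.1 and 0.5, open points have fewer than 2000 UMIs, and 87 vehicle but 9 corticosterone members lie at or above 0.5.

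The excess of members in the vehicle library lay in the barcodes with more microglial RNA. Members below 0.1 times the microglial median made up 0.629% of all barcodes in vehicle (interval 0.486 to 0.799%) and 0.582% in corticosterone (0.475 to 0.704%), and these intervals overlap. Members below 0.5 times made up 1.38% (1.17 to 1.62%) and 0.682% (0.567 to 0.814%). Barcodes near the 1% threshold were also unevenly spread. Between 1 and 1.5% lay 24 vehicle and 2 corticosterone members, and just outside, between 0.5 and 1%, lay 40 vehicle and 10 corticosterone barcodes. The 24 vehicle members just inside had a median of 912.5 UMIs and a microglial share of 0.745 times the median microglial barcode. A further 13 vehicle and 22 corticosterone barcodes reached 1% with fewer than 3 of the genes, and those 22 had 16.6% of their UMIs in S100a8 and S100a9.

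The genes with the highest ratios in members over all other barcodes had varied roles. Ranked by the smaller of the 2 libraries' ratios and leaving out the 4 rule genes, the leading genes were Orm1, Fcnb, Serpinb1a, Cebpe, Lbp, Inhba, Itgb2l, Cd177, Ly6g, Syne1, Anxa1, Wfdc21, Ifitm6, Ltb4r1 and Mgst2. Orm1, an acute phase lipocalin, was at 151 CPM in vehicle members and 0.0828 CPM in all other vehicle barcodes, and at 152 and 0.202 CPM in corticosterone. Serpinb1a, an inhibitor of neutrophil elastase, was at 530 and 0.993 CPM in vehicle and at 817 and 0.536 CPM in corticosterone. Cebpe, which encodes C/EBP epsilon, was at 251 and 0.497 CPM in vehicle and at 410 and 0.786 CPM in corticosterone. Ly6g, the surface protein used to sort mouse neutrophils, was at 705 and 2.61 CPM in vehicle and at 1238 and 2.06 CPM in corticosterone.

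Promoters of all genes, among them the rule genes and the secondary granule, late neutrophil, interferon and cell cycle lists, were searched for C/EBP letters. These were TTNNGNAA, or TTNCNNAA for the other strand, in the 250 bases before the RefSeq start. A match lay before 3 of the 4 rule genes and before 8 of the 9 secondary granule genes that had a promoter in the table, of 12 listed, against 40.3% of 27025 genes. It also lay before 8 of 13 late neutrophil genes (61.5%), 11 of 19 interferon genes (57.9%) and 6 of 18 cell cycle genes (33.3%). For Lcn2, Olfm4, Lyz2 and Anxa1, which are among those counted, the only match was not upstream of every annotated start. The stretches of 3 genes are shown because they belong to strongly expressed granule genes and lie upstream of every annotated start, with capitals marking the matched letters (RefSeq promoters, GRCm38.p6). The Ngp stretch is chr9:110419650-110419733 on the plus strand, the Ltf stretch is chr9:111019055-111019244 on the plus strand, and the Cd177 stretch is chr7:24760339-24760386 on the minus strand.
Ngp: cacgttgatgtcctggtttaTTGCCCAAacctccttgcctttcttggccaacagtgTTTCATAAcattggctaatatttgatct
Ltf: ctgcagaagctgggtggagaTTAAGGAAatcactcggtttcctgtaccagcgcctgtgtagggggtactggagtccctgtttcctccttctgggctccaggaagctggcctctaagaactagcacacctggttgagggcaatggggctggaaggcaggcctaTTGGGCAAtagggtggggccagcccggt
Cd177: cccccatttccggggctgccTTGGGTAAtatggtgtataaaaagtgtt
A match describes letters in a window and is not a measured binding site, and Camp had no match in its window.

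Against other neutrophils of the same library, the members were higher in secondary granule and cell cycle genes and lower in late neutrophil, cytokine and interferon genes. Of 2917 genes with a mean of at least 50 CPM, 143 (4.90%) were at least 2-fold higher in both libraries and 369 (12.6%) at least 2-fold lower. Other neutrophils held more microglial RNA than the members (0.738 and 0.494 times the microglial level), and with both sides limited to barcodes below 0.5 times the microglial median the counts were 146 (5.59%) and 465 (17.8%) of 2613 genes. Scaling by edgeR's TMM factors in place of total UMIs moved all log2 ratios up by 0.43 in vehicle and 0.50 in corticosterone and gave 259 genes higher and 79 lower. These ratios are a description, because the members were selected on granule genes and the other neutrophils on S100a8, S100a9, Csf3r, Cxcr2 and Retnlg. Intervals lay above 0 in both libraries for 10.1% of all genes and below 0 in both for 43.5%, and for 8.42 and 30.6% with less microglial RNA.

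All 12 secondary granule genes outside the rule were higher in members of both libraries with intervals above 0 (10.1% of all genes), and 11 were at least 2-fold higher (4.90%). With both sides below 0.5 times the microglial median 11 were above 0 (8.42% of all genes) and 9 at least 2-fold higher (5.59%). The median log2 ratio was 3.18 in vehicle and 3.39 in corticosterone, against -0.41 and -0.58 over all genes tested. Chil3, a chitinase-like protein, was at 4833 CPM in vehicle members and 22.6 CPM in other neutrophils, and at 10841 and 508 CPM in corticosterone. Fcnb, the pattern-recognition protein ficolin B, had 355 and 455 UMIs in members and 0 in other neutrophils of either library, which gives a log2 ratio of at least 6.91 and 7.08 when 3 counts over the group are set as the floor. Mmp8, a collagenase, was at 1389 and 453 CPM in vehicle and at 2528 and 832 CPM in corticosterone. Hp, which encodes haptoglobin, was the exception in direction: its ratio of 0.13 in corticosterone became -0.53 below 0.5 times the microglial median.

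The 14 late neutrophil genes ran the other way. Of these, 11 were lower in the members of both libraries, 8 of them at least 2-fold, and below 0.5 times the microglial median 14 of 14 were lower and 13 at least 2-fold. Among all genes 43.5% were lower in both and 12.6% at least 2-fold, or 30.6 and 17.8% with less microglial RNA. Csf3r, Cxcr2 and Retnlg of this list had served to choose the other neutrophils, so their direction was partly set by that choice. Without these 3, 8 of 11 were lower and 6 at least 2-fold, and with less microglial RNA 11 of 11 were at least 2-fold lower. Cxcr2, the chemokine receptor that carries mature neutrophils out of the marrow, was at 171 CPM in vehicle members and 516 CPM in other neutrophils, and at 216 and 1092 CPM in corticosterone. Il1b, the cytokine interleukin 1 beta, was at 107 and 1532 CPM in vehicle and at 61.7 and 3009 CPM in corticosterone. Retnlg, a resistin-like secreted protein of the same list, differed by only -0.16 and -0.34 with all barcodes. The gap was wider below 0.5 times the microglial median for the 5 mature neutrophil markers, of which Retnlg is 1. They summed there to 7705 CPM in vehicle members and 18008 CPM in other neutrophils, and to 9218 and 22997 CPM in corticosterone.

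Cell cycle genes were higher in the members, with 6 of the 8 at the level at least 2-fold higher in both libraries (4.90% of all genes) and medians of 2.39 in vehicle and 3.77 in corticosterone. Mki67, a protein of dividing nuclei, had 208 and 214 UMIs in members and 1 and 0 UMIs in other neutrophils. Tertiary granule genes had medians near 0 (0.43 and 0.29), which were -0.25 and -0.44 with less microglial RNA on both sides. NADPH oxidase genes, which make the oxidative burst, had a median of 0.77 in vehicle and 0.71 in corticosterone, with 5 of 7 higher in both (10.1% of all genes). Cybb, its catalytic subunit, was at 1269 CPM in vehicle members and 79.6 CPM in other neutrophils, and at 1848 and 288 CPM in corticosterone. Of 11 inflammatory cytokine genes 11 were lower in both libraries, as were 43.5% of all genes, and 6 were at least 2-fold lower (12.6% of all genes). Of 25 interferon response genes 16 were lower in both, against the same 43.5%, and 13 at least 2-fold (12.6% of all genes), with medians of -1.17 and -1.99. Of 12 adhesion and chemoattractant receptors 7 were lower and 2 higher in both, and 5 were at least 2-fold lower (12.6% of all genes). With less microglial RNA on both sides 9 of 12 were lower (30.6% of all genes), 8 at least 2-fold (17.8%), and 0 higher. Cxcr2 of this list had served to choose the other neutrophils.

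**Figure D2:**
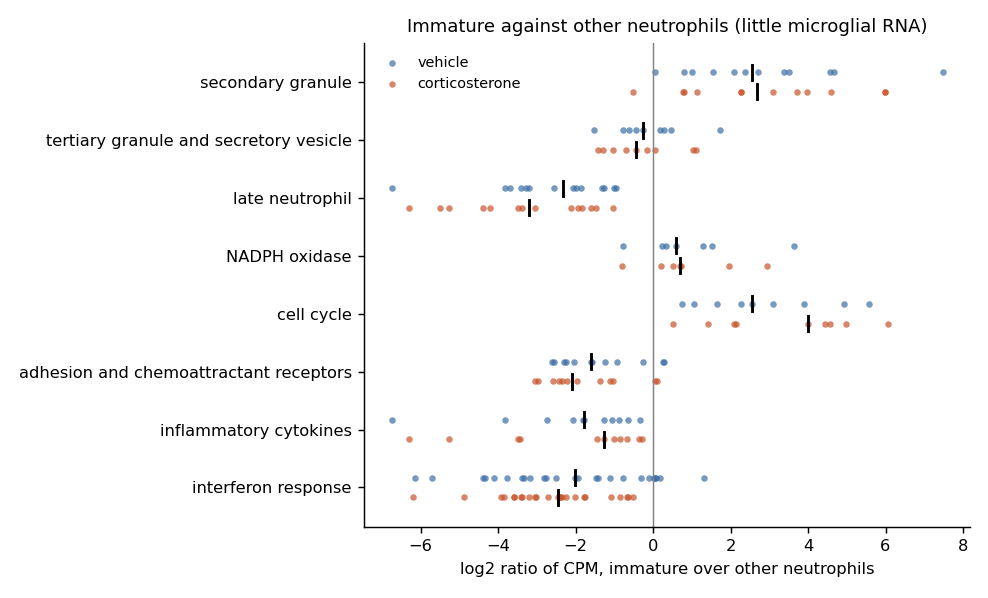
Points are genes and black bars list medians of the log2 ratio of CPM, members over other neutrophils of the same library, in barcodes below 0.5 times the microglial median, with genes at 0 UMIs set to the floor of 3 counts. Secondary granule genes lie at medians of 2.54 and 2.68 and late neutrophil genes at -2.31 and -3.21 in vehicle and corticosterone.

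The members were not uniform. Across bins of the granule-gene share, genes of the dividing and early stages were higher where the share was high and genes of later stages higher where it was low. In barcodes below 0.5 times the microglial median, Retnlg was at 26319 CPM in the 13 vehicle members with a share of 1 to 2% and at 2456 CPM in the 85 with a share above 10%. In corticosterone it was at 39635 CPM in 6 members and 4519 CPM in 88. Mmp8 went from 3755 to 1523 CPM in vehicle and from 5668 to 2184 CPM in corticosterone. Chil3 went the other way, from 144 to 7492 CPM in vehicle and from 676 to 13330 CPM in corticosterone. The share is the value that chose the members, so this order is a description, and the bins at 1 to 2% hold few barcodes. In these lowest bins Fcnb and Mki67 were at 0 CPM in both libraries, and Camp was at 2022 and 2027 CPM. Retnlg alone exceeded there the 5 summed mature markers of other neutrophils below 0.5 times, at 18008 and 22997 CPM. Cd177 was still at 794 and 1126 CPM. The name immature is therefore doubtful for the members with the lowest share.

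**Figure D3:**
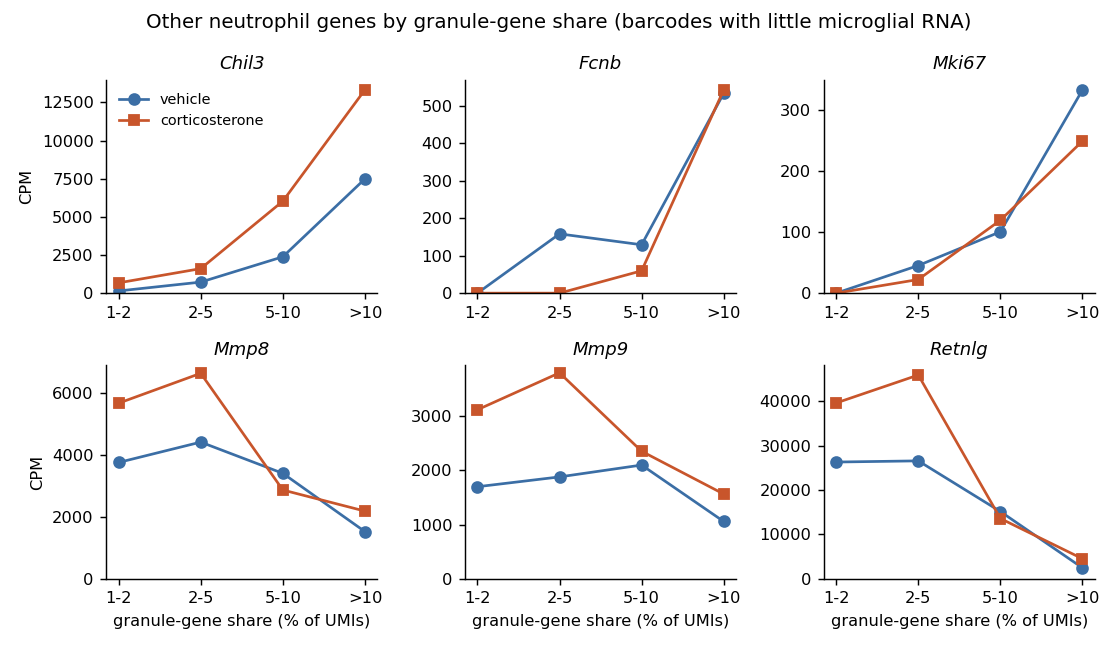
CPM of 6 genes outside the rule (y axis) by bins of the granule-gene share (x axis, % of UMIs) in members below 0.5 times the microglial median, for vehicle (circles) and corticosterone (squares). Retnlg, Mmp8 and Mmp9 are lower and Chil3, Fcnb and Mki67 higher above 10% than at 1 to 2%.

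Dividing cells were present among the members. Barcodes with a UMI in at least 3 of 8 mitotic genes (Mki67, Top2a, Birc5, Cdk1, Ccnb2, Ccna2, Ube2c and Cdca8, a set chosen after the data had been seen) numbered 26 of 232 in vehicle (11.2%, interval 7.45 to 16%) and 17 of 131 in corticosterone (13%, 7.74 to 20%). Among other neutrophils there were 0 of 223 and 0 of 249, with intervals that reach up to 1.64 and 1.47%. Among microglial barcodes there were 19 of 9826 and 2 of 16844. Thinned to 1000 UMIs, the members' shares were 8.02% (4.34 to 13.3%) and 3.91% (1.28 to 8.88%). Below 0.1 times the microglial median the unthinned shares were 27.3% (17 to 39.6%) of 66 and 10.6% (5.40 to 18.1%) of 104, with intervals that still overlapped. The mitotic barcodes were deeper than the others, with medians of 5927.5 against 2702.5 UMIs in vehicle and 14191 against 6650.5 in corticosterone.

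The mitotic members carried the earliest transcripts of the series' neutrophils. Fcnb was at 825 CPM in mitotic and 207 CPM in the other vehicle members, and at 1281 and 155 CPM in corticosterone. Elane, the gene of neutrophil elastase in primary granules, had 16 of 21 vehicle UMIs and 28 of 28 corticosterone UMIs in mitotic barcodes. Elane had a UMI in 2.16% of the 232 vehicle and 1.53% of the 131 corticosterone members, so its sums rest on few barcodes. Ms4a3, a membrane protein of granulocyte and monocyte precursors, differed by a log2 ratio of 2.12 (interval 1.13 to 3.15) in vehicle and 3.38 (2.37 to 4.51) in corticosterone. Camp was higher in mitotic members by 0.53 in both libraries, while Ltf was lower by -0.49 and -0.38. The late genes were nearly missing: Retnlg had 8 UMIs in mitotic and 4570 in other vehicle members and 21 and 8986 in corticosterone, and Mmp8 had 14 and 1373 in vehicle and 11 and 2775 in corticosterone. Slfn4, an interferon-inducible gene, was also lower in mitotic members, at 87.5 against 609 CPM in vehicle and at 159 against 1514 CPM in corticosterone. P2ry12 summed over barcodes differed by -0.03 (-0.18 to 0.11) in vehicle and -0.32 (-0.64 to -0.01) in corticosterone, while 18 of the 26 mitotic vehicle members and 66 of all 232 lay below 0.1 times the microglial median.

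**Figure D4:**
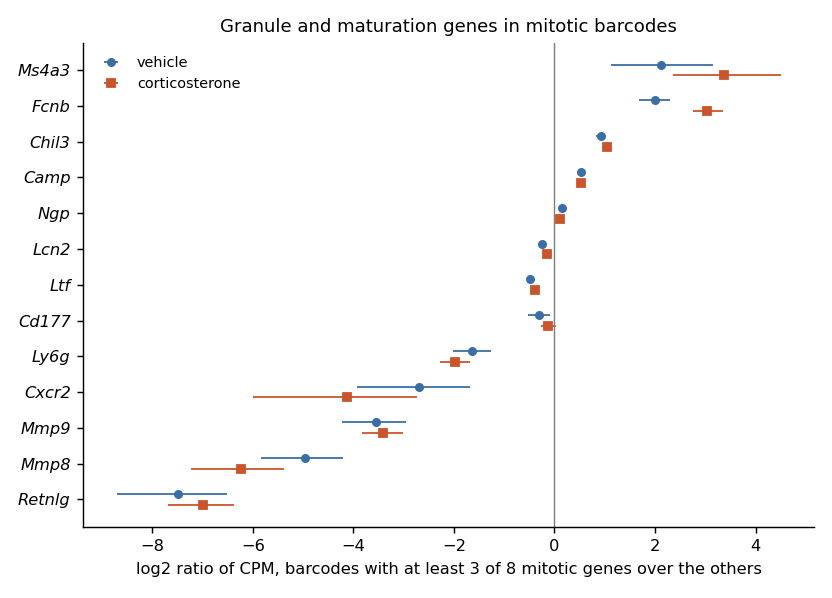
Log2 ratio of CPM (x axis) in members with at least 3 of 8 mitotic genes over all other members, for 13 genes (y axis), with 95% counting intervals. Ms4a3, Fcnb and Chil3 lie above 0 and Ly6g, Cxcr2, Mmp9, Mmp8 and Retnlg below 0 in both libraries.

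Within the members, the corticosterone library was compared with vehicle over 2473 genes with a mean of at least 50 CPM. Genes at least 2-fold higher with an interval above 0 numbered 40 (1.62%), and genes at least 2-fold lower with an interval below 0 numbered 209 (8.45%). Scaling shifted this balance, since TMM factors moved every log2 ratio up by 0.27 and gave 136 higher and 136 lower, and DESeq2 size factors moved it up by 0.35 and gave 193 and 113. The median over all genes was -0.06 with total UMIs. Microglial RNA moved with the lower genes, since 205 of the 209 (98.1%) had a higher level in vehicle microglial barcodes than in vehicle members, against 61.2% of all genes tested. Its part in the difference was not tested. Below 0.5 times the microglial median, 145 vehicle and 122 corticosterone members gave 28 genes higher (1.22%) and 47 lower (2.06%) of 2286. Below 0.1 times, 66 and 104 members gave 58 higher (2.71%) and 107 lower (5.00%) of 2142. The 12 genes of the naming rule that were lower, among them Ccl7, Fcrls, Lag3, Cst3, Atf3, Hpgds, Ecscr, Rnase4, P2ry12, Scoc and Sparc, were all 12 higher in vehicle microglial barcodes than in vehicle members.

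Interferon response genes were higher in corticosterone members than in vehicle members. Of 26 listed genes 16 reached the level, 15 had intervals above 0 (18.1% of all genes tested did) and 12 were at least 2-fold higher, with a median log2 ratio of 1.32. Below 0.5 times the microglial median 17 of 17 were above 0 (14.0% of all genes), 10 were at least 2-fold higher and the median was 1.06. Below 0.1 times 17 of 17 were above 0 (13.1% of all genes), 14 were at least 2-fold higher and the median was 1.47. Of the 12 named higher genes 8 were on this list, the others being Plac8, Olfm4, Rnf213 and Chil3. The direction was the same with TMM factors (median 1.59) and DESeq2 size factors (1.72).

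Isg15, a ubiquitin-like modifier, had 43 UMIs (43.1 CPM) in vehicle and 226 (205 CPM) in corticosterone members, a log2 ratio of 2.25 (interval 1.78 to 2.76). Rsad2, the antiviral enzyme viperin, had 29 and 169 UMIs and a ratio of 2.40 (1.83 to 3.02). Ifit3, an antiviral protein of the IFIT family, had 20 and 117 UMIs and a ratio of 2.41 (1.71 to 3.17). Ifit3 has a close copy, Ifit3b, with which its reads may be split, so its value is uncertain. Slfn5, of the Schlafen family, had 15 and 107 UMIs and a ratio of 2.69 (1.91 to 3.58), which was 3.25 below 0.5 times the microglial median and 4.01 below 0.1 times. Ifitm3, a membrane protein that restricts virus entry, was at 839 and 1994 CPM and differed by 1.25 (1.13 to 1.37). Ly6e, which was at 1239 CPM in vehicle microglial barcodes, differed by 0.45 in all members and by 1.45 (1.15 to 1.77) below 0.5 times the microglial median. The lowest of the list was Bst2, tetherin, with 0.37 (-0.04 to 0.79).

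The difference was spread over barcodes. Summed over the list, interferon genes made up 2731 CPM of the vehicle and 6310 CPM of the corticosterone members, and the median barcode was at 2430 and 5842 CPM. The tenth of barcodes with the highest sums held 39.4% of the interferon UMIs in vehicle and 25.9% in corticosterone. Thinned to 1000 UMIs, 34.6% of vehicle members (27.3 to 42.4%) and 64.8% of corticosterone members (55.9 to 73.1%) had at least 3 interferon genes, and 58.6 and 98.5% did so without thinning. The same share was 64.8 and 95.1% in other neutrophils and 6.76 and 29.4% in microglial barcodes. The list's median log2 ratio between the libraries was 2.36 in other neutrophils and 1.44 in microglial barcodes, so the direction was not particular to the members. Between these populations the difference itself was not tested.

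**Figure D5:**
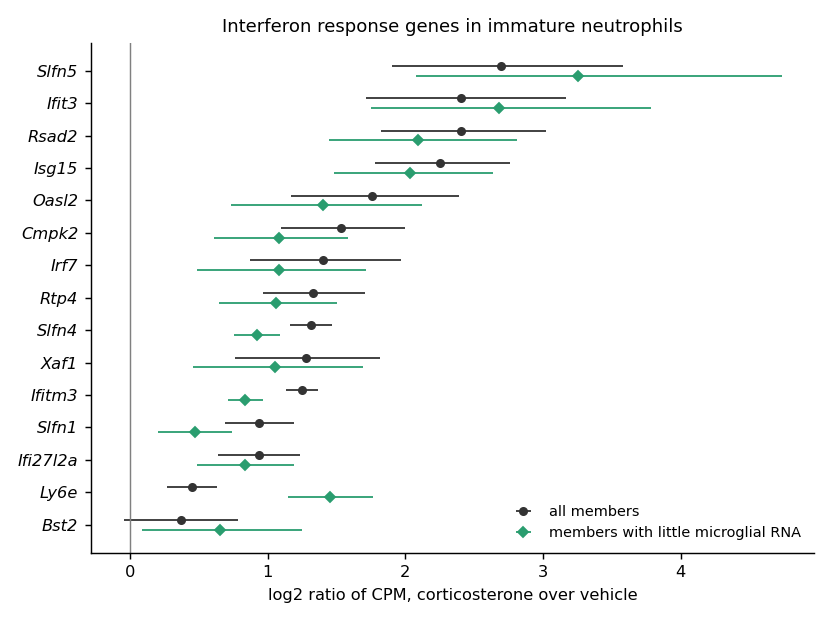
Log2 ratio of CPM, corticosterone over vehicle (x axis), for 15 of the 16 interferon response genes at the level (y axis), with 95% counting intervals, in all members (circles) and in members below 0.5 times the microglial median (diamonds). All 15 diamonds have intervals above 0, and among the circles only that of Bst2 includes 0.

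The interferon-stimulated response element, searched as GAAA, any 2 bases and GAAA, or on the other strand TTTC, any 2 bases and TTTC, in the 250 bases before the RefSeq start, was found for 8 of 19 interferon genes with a promoter (42.1%) and for 936 of 27025 genes (3.46%). It was found before 0 of the 4 rule genes, 0 of 9 secondary granule genes, 0 of 18 cell cycle genes and 0 of 13 late neutrophil genes. Of the named higher genes, Ifitm3, Slfn4, Oasl2 and Cmpk2 had no match, and the match of Slfn5 was not upstream of every annotated start. Bst2, the lowest of the list, had matches, and whether a match went with the difference was not tested. Stretches of Isg15, Ifit3 and Rsad2, whose matches lie upstream of every annotated start, are shown with the matches in capitals (RefSeq promoters, GRCm38.p6). They lie at chr4:156200855-156200916 on the minus strand for Isg15, chr19:34583353-34583436 on the plus strand for Ifit3 and chr12:26456543-26456592 on the minus strand for Rsad2.
Isg15: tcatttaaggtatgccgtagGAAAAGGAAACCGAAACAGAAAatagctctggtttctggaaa
Ifit3: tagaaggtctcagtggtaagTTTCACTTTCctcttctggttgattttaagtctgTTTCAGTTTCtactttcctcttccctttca
Rsad2: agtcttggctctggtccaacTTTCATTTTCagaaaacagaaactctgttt
In the Isg15 stretch the capitals cover 3 overlapping matches. A match is a description of the letters, and no binding was measured here.

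Granule genes were also higher in the corticosterone members, by amounts that were smaller in the sets with less microglial RNA. Of the 12 secondary granule genes 11 had intervals above 0 and 2 were at least 2-fold higher, with a median of 0.60, where 18.1% of all genes were above 0 and 1.62% at least 2-fold higher. Below 0.5 times the microglial median the median was 0.24 with 9 above 0, and below 0.1 times it was 0.26 with 9 above 0 and 2 below. The rule genes had medians of 0.47, 0.11 and 0.05 in the 3 sets, and Camp went from 0.34 (0.32 to 0.36) in all members to -0.12 (-0.14 to -0.09) in the lowest set. S100a8 went from 0.13 to -0.25 and -0.20. Chil3 differed by 1.17 (1.12 to 1.21), 0.93 and 0.71 in the 3 sets, and Olfm4, olfactomedin 4, by 1.71 (1.34 to 2.09), 1.12 and 0.87. Olfm4 was found in 9 vehicle and 10 corticosterone members, so its sums rest on few barcodes. Mmp9, the gelatinase of tertiary granules, differed by 1.0, 0.51 and 0.86. Against the same 18.1%, NADPH oxidase genes had 5 of 7 intervals above 0, with medians of 0.35, 0.14 and 0.18. Granulocyte transcription factors had medians of 0.03, 0.26 and 0.22, with Cebpe at 0.71, 0.42 and 0.27. Adhesion and chemoattractant receptors had medians of 0.44, 0.03 and 0.52, with 8 of 11 intervals above 0 in all members against 18.1% of all genes. Late neutrophil genes had medians of 0.32, -0.05 and 0.20, so no common direction was seen there.

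Cytokine and stress genes were lower in the corticosterone members as a whole. Of 10 inflammatory cytokine genes 9 had intervals below 0 (26.4% of all genes did) and 5 were at least 2-fold lower, with a median of -0.92. Below 0.5 times the microglial median 3 of 9 were below 0 (10.1% of all genes) and the median was -0.08. Ccl3 and Ccl4, chemokines at 3472 and 3794 CPM in vehicle microglial barcodes, went from -1.38 to -0.43 and from -1.15 to -0.18. Cxcl2, a chemokine that attracts neutrophils, did not follow them: it had 223 UMIs in vehicle and 89 in corticosterone members, and its ratio was -1.47 (-1.84 to -1.11) in all members, -1.81 and -1.84 in the sets with less microglial RNA, and 1.03 in microglial barcodes. Immediate early and heat shock genes, which respond within minutes to stimuli and handling, had medians of -1.02, -0.42 and -0.14, with 11, 10 and 5 of 13 below 0 (11.4% of all genes in the third set). The glucocorticoid response list had 1 gene above and 4 below 0 of 7, where 18.1 and 26.4% of all genes were. Its median of -0.32 was 0.03 under DESeq2 size factors. In each of the sets with less microglial RNA 2 of 6 were above and 2 below 0, with medians of -0.13 and -0.01. Tsc22d3, the glucocorticoid-induced leucine zipper, had 111 and 98 UMIs and a ratio of -0.32 (-0.73 to 0.08). Fkbp5 and Per1 did not reach the level, at 30.0 and 29.9 CPM and at 28.0 and 25.4 CPM.

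Cell cycle genes differed little in all members, with 1 of 14 above and 2 below 0 and a median of -0.11 that became 0.16 with TMM factors. Below 0.1 times the microglial median 13 of 14 were below 0 and 11 at least 2-fold lower, with a median of -1.16, where the background was 5.00% of genes. Mki67, the proliferation marker, had 208 and 214 UMIs in all members and a ratio of -0.10 (-0.38 to 0.18), which became -1.47 (-1.85 to -1.09) in that set. That set held 18 of the 26 mitotic vehicle members and 11 of the 17 mitotic corticosterone members, and 66 of 232 and 104 of 131 members in all.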

How the data were processed

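Single-cell libraries were made with a Singleron GEXSCOPE kit from sorted cells and sequenced on an Illumina NovaSeq instrument, per the labels' protocols. The authors deposited 1 matrix of UMI counts per gene and barcode for each library. The submitters' processing notes name GRCm38 and bcl2fastq 2.19, while the aligner, annotation and cell calling are not given in the sources used here. Counts were read as deposited (32589 features, of which 52 symbols repeat). Members and gene lists were chosen with earlier results of these data known. UMIs were summed per library and population and divided by their total (CPM), with Poisson intervals for levels, exact conditional intervals for log2 ratios and Clopper-Pearson intervals for shares. A gene with a mean of at least 50 CPM was called when it differed at least 2-fold with an interval excluding 0, and a gene at 0 was set to a floor of 3 counts per group. The intervals of log2 ratios were checked on simulated Poisson counts, and the thinning on a simulated barcode. The simulated counts held no spread between barcodes, so the check does not show how the calls behave under such spread. Named genes were the rule genes and Cd177, the 15 leading genes, the 12 largest called differences in each direction and the extremes of each list, and genes named beyond these were chosen after their values were seen. No doublet caller was run, and limits on microglial share (0.5, and 0.1 added after seeing the data) and removal of the deepest 5% of barcodes were tried instead. Alternatives used edgeR 4.0.16 (TMM factors) and DESeq2 1.42.0 (size factors) for scaling only. Python 3.11.15, numpy 2.4.6, scipy 1.17.1 and pandas 2.3.3 were used. Values of a few genes are not reported here.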

Additional observations from a re-analysis of the deposited data

How the results depend on the processing

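No paired analysis was possible because each group had 1 library, and leaving out a library leaves no comparison, so the cause of each change below was not tested. The number of genes at least 2-fold higher in corticosterone than vehicle members (40) was 136 with TMM factors, 193 with DESeq2 size factors, 105 with barcodes weighted equally, 170 with no minimum CPM and 12 with a minimum of 100 CPM. The number lower (209) was 136, 113, 431, 1254 and 118 under the same settings, 47 with a microglial share below 0.5 times the median and 107 below 0.1 times. Among genes whose main interval excluded 0, log2 ratios changed sign for Camp (-0.12), Csf3r (0.20), H2az1 (-0.44) and S100a8 (-0.20) below 0.1 times. S100a8 was -0.25 below 0.5 times and -0.025 without the deepest 5% of barcodes. Srgn was 0.058 with TMM, 0.13 with DESeq2 and 0.071 with equal weights. Against other neutrophils, the number higher (143) was 72 below 0.1 times in both populations, 259 with TMM, 266 with DESeq2, 449 with no minimum CPM and 92 with 100 CPM. The number lower (369) was 710 with only the members limited to below 0.5 times, 612 without the deepest 5%, 79 with TMM, 79 with DESeq2, 217 with the rule genes out of the total, 926 with no minimum and 210 with 100 CPM. In vehicle, below 0.1 times in both populations, Inhba was -0.065, Hp -0.35, Fpr2 -0.19, Ifitm3 -0.64 and Hsp90aa1 0.48, and Hsp90aa1 was 0.22 with equal weights. Only 14 vehicle other neutrophils with 23886 UMIs were left below 0.1 times, and the count of 72 rests on them too. Intervals there included 0 for Hp (-0.81 to 0.13), Fpr2 (-1.01 to 0.75) and Hsp90aa1 (-1.14 to 2.80). Inhba had no UMI in those 14 barcodes, so its value rests on the floor of 3 counts and its sign was not measured. In corticosterone, Hp was -0.53 below 0.5 times, -0.51 below 0.1 times and -0.36 with equal weights. Hsp90aa1 was 0.18 below 0.5 times and 0.011 below 0.1 times. The vehicle share of members (2.21%) was 1.72% with at least 1000 UMIs and 500 genes, 2.59% with a granule threshold of 0.5%, 1.88% with 2%, 1.38% (145 barcodes) below 0.5 times the microglial median and 0.629% (66 barcodes) below 0.1 times, where the corticosterone share was 0.582%. The mitotic share in vehicle was 27.3% below 0.1 times. The share with at least 3 interferon genes was 66.2% in vehicle and 90.6% in corticosterone at 2000 UMIs, and 58.6 and 98.5% unthinned. Of the gene values between treatments under all settings, 600 stayed within their counting interval and 175 moved beyond it. A further 9 changed sign, which was counted only for genes whose main interval excluded 0. Other sign changes are among the 600 and 175. The settings of the minimum CPM cannot change a gene's ratio, so those values stayed the same by construction. With 1 library per group and no animal numbers, no interval here covers variation between mice.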

Other observations

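Genes shared with classical monocytes were present in the members. Ly6c2, a surface protein of inflammatory monocytes that immature neutrophils also carry, had 1232 CPM in the vehicle members and 2410 CPM in the corticosterone members, a log2 ratio of 0.97 (0.87 to 1.07) that was 0.58 below 0.5 times the microglial median and 0.60 below 0.1 times. Plac8, a small cysteine-rich protein, was at 138 and 434 CPM and differed by 1.65 (1.37 to 1.93), 1.18 and 1.37. Vcan and Fn1, which are typical of monocytes and macrophages, had 0 UMIs in vehicle members and 3 and 19 UMIs in corticosterone members. Hbb-bs, a beta globin of red cells, had 145 CPM in the vehicle members and 61.7 CPM in the corticosterone members (-1.23, interval -1.67 to -0.81). Cd74, the invariant chain of antigen presentation, did not hold a direction across the sets, with -0.17 (-0.44 to 0.11) in all members, 1.24 (0.79 to 1.70) below 0.5 times and -4.01 (-5.54 to -2.77) below 0.1 times.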
